A study of Mus musculus with 6 samples.

Results

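The genes described here copy DNA and make its building blocks. They were read in C2C12 cells, a mouse myoblast line that stops dividing and fuses into muscle fibres when serum is withdrawn, on Affymetrix mouse 430 2.0 arrays. The list names 43 genes, and 42 of them have a probe set that the platform annotation pairs with exactly 1 symbol, out of 18194 such genes. For each gene the probe set with the highest mean over the 6 arrays was used. Chaf1a, the large subunit of the histone chaperone that works at the fork, was not analysed here. Genes that reached 7.95 log2 units, the median of all values, on at least 1 array were kept: all 42 genes read here, and 13242 in all. The members were chosen by function, with earlier results of these data known.

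Parental C2C12 cells gave 4 arrays: growth medium with 10% fetal bovine serum, and days 0, 2 and 4 after a confluent culture was moved to 2% horse serum, where day 0 is just after the change. The other 2 arrays came from stable transfectants at day 0, 1 with a vector for a short hairpin RNA against Rp58 (shRp58) and 1 with its control, which the labels name a LacZ vector in one place and a control sh in another. Rp58 is the transcriptional repressor now called Zbtb18. Both lines had been transfected with Lipofectamin 2000 and selected in G418 (500 µg/ml, 2 weeks), and whether each was a pool or a single clone is not stated in the labels. Each group is 1 array, so no value below has a replicate error, no difference was tested, and precision is limited by the number of arrays. The deposited log2 values of the stable lines lie lower as a whole, with a median of 7.15 against 8.26 to 8.27 on the time-course arrays, so differences are taken within each of these sets.

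Before S phase the origin recognition complex, with Cdc6 and Cdt1, loads the ring-shaped Mcm helicase onto origins. Cdc45 and the GINS complex then switch the ring on, primase and polymerases copy the strands behind it, and the Pcna clamp, which the Rfc complex opens and closes, keeps polymerases on the template. Ribonucleotide reductase, thymidylate synthase and thymidine kinase feed in the nucleotides. Many of these genes are known targets of E2F factors, which the retinoblastoma family holds in check when cells leave the cycle, as myoblasts do before they fuse.

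Markers of muscle were present. Of 7 muscle markers, 6 or 7 stood at or above 7.95 on each array, with desmin (Des) between 12.87 and 13.97. Markers of other types were mixed. Adipoq was at most 5.91, Ptprc at most 5.80, Pecam1 at most 5.93 and Snap25 at most 5.09, while Cd3e read 8.86 to 10.29, Kdr 8.42 to 9.46 and Syn1 9.68 to 11.02. On each array 1 or 2 of 3 adipocyte markers, 1 or 2 of 4 leukocyte markers, 1 of 4 endothelial markers and 2 or 3 of 4 neuronal markers reached 7.95, with summed log2 levels of 19.93 to 24.48, 27.65 to 32.14, 24.16 to 29.16 and 28.93 to 34.46. Among them Tubb3, a tubulin used as a neuronal marker, went the same way as the replication genes, -2.88 at day 4 and 0.75 with shRp58. Zbtb18, the hairpin's target, stood at 11.69 in the control line and 11.16 in the shRp58 line (-0.53). The part that other cell types play in the values below was not tested.

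E2F sites are the promoter element these genes are best known for, so the promoters were searched for them before the values are given. The RefSeq promoter table (GRCm38.p6, 250 bases before to 50 after each listed start) holds 41 windows for 35 of the 42 genes. An E2F match was any of TTTCCCGC, TTTGGCGC, TTTCGCGC or TTTGCCGC on either strand, and such matches can overlap one another. It was present in 13 of the 41 member windows (31.7%), belonging to 13 genes, against 2.26% of all 32851 windows and 3.63% of the windows of kept genes. Median GC content was 57.7% in the member windows, 52.7% in all and 60% in those of kept genes. The 13 genes are Cdc6, Cdt1, Gins3, Lig1, Mcm3, Mcm5, Mcm6, Mcm7, Orc1, Pola1, Pold1, Pole2 and Rfc3.

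Stretches of 60 bases from 4 of these promoters are shown because they span the range of responses described below, from Mcm5, among the furthest down at day 4, to Gins3, whose difference was small. These 4 lie outside the annotated span of the gene. Each is given along the strand of its gene, with the E2F matches in capitals. Mcm5 is read from the plus strand at chr8:75109334-75109393, Mcm6 from the minus strand at chr1:128359719-128359778, Rfc3 from the minus strand at chr5:151651209-151651268, and Gins3 from the plus strand at chr8:95633492-95633551. All lie upstream of the listed start of their gene.
Mcm5: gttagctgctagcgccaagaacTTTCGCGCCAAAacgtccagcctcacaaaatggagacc
Mcm6: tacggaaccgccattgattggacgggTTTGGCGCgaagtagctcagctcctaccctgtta
Rfc3: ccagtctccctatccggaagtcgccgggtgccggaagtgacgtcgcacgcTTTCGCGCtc
Gins3: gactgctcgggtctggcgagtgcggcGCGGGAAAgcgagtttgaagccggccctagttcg
The Mcm5 stretch holds 2 matches that overlap on opposite strands. The match in Gins3 starts 41 bases before the listed start, in Mcm6 47, in Rfc3 10, and the one nearer the start in Mcm5 149.

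Other cell cycle elements were spread differently. The CCAAT box, the pentamer that NF-Y binds (CCAAT, either strand), was in 58.5% of member windows and 37.4% of all, as of those of kept genes. The CHR element, through which many mitotic genes are repressed in resting cells (TTTGAA or TTTAAA, either strand), was in 9 of 41 member windows (22%), 27.6% of all, 19.8% of those of kept genes and 20 of 25 windows of a mitosis list (80%). E2F matches were in 1 of those 25 mitosis windows (4%). The CCAAT box was in 19 of them (76%), a larger share than in the member windows. A match is a description of the letters and not evidence of binding.

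Replication genes stood lower at each stage of differentiation. The median difference was -0.29 for day 0 against growth medium, -1.04 for day 2 against day 0, and -1.44 for day 4 against day 0. Over all kept genes the corresponding medians were 0.10, -0.01 and -0.04. These differences share arrays (day 0 enters all 3). In bulk RNA, fewer cells in cycle and less of the transcript in each cell cannot be told apart.

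The differences at the confluence step were small, though most pointed down. At 2-fold 0 of the 42 genes were lower at day 0, which is near the 0.317% of kept genes. Below 0 lay 40 of the 42 (95.2%), against 38.7%, and 4 (9.52%) were at least 1.5-fold lower, against 2.94%. Those 4 were Orc1 (-0.82), the thymidylate synthase gene Tyms (-0.64), the origin-firing factor Mcm10 (-0.61) and Gins2 (-0.59). The 2 genes not below 0, Rfc2 (0.07) and Rfc1 (0.0034), turned negative after quantile or loess normalization. Of the 7 muscle markers Myog was 2.28 higher at this step, and the other 6 lay between -0.19 (Myf6) and 0.74 (Cdh15).

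By day 2 all 42 genes lay below day 0, against 6881 of 13242 kept genes. Of the 42, 22 were at least 2-fold lower (52.4%), where 2.96% of kept genes were. By day 4 the number was 28 (66.7%) against 5.66%. At day 4 0 genes of the list were 2-fold higher, against 3.83%.

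**Figure D1:**
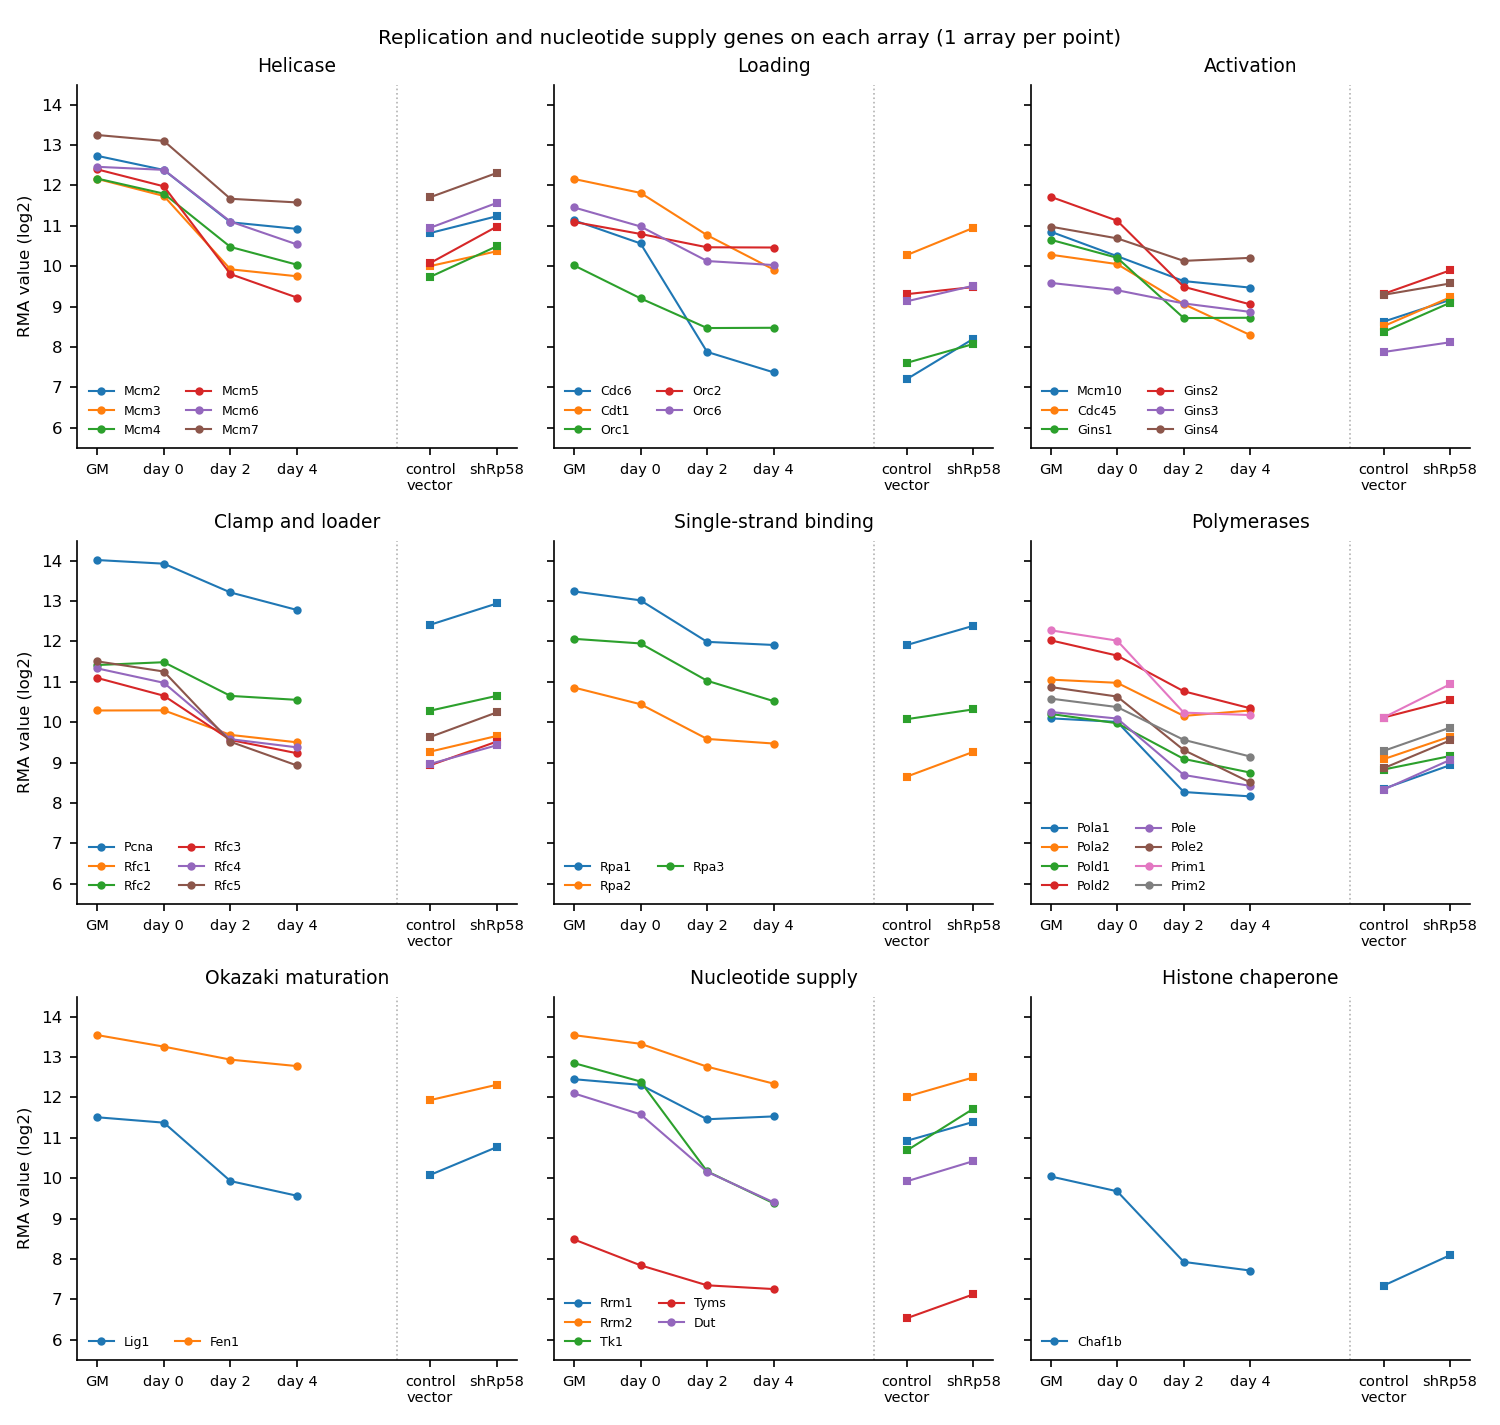
RMA values (log2, vertical axis) of the 42 genes on the 4 time-course arrays and, right of the dotted line, the 2 stable-line arrays, in 9 panels by role. Each point is 1 array, and the sets left and right of the dotted line are on different scales. All lines descend between day 0 and day 2, as for Cdc6 (10.56 to 7.88), while Orc2 stays near level (10.80 to 10.47).

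The 6 subunits of the Mcm2 to Mcm7 ring, the motor of the replicative helicase, were all at least 2-fold lower at day 2 and day 4. Mcm5 stood at 12.40 in growth medium and 11.98, 9.81 and 9.22 at days 0, 2 and 4. Its difference from day 0 was -2.17 at day 2 and -2.75 at day 4, a 6.75-fold lower level. By their brightest probe sets no other subunit was as far down. Mcm3 was read at 12.16 in growth medium and 11.74, 9.92 and 9.75 at days 0, 2 and 4 (-1.99 at day 4). Mcm6 was at 12.46 in growth medium and 12.39, 11.11 and 10.54 at days 0, 2 and 4 (-1.85). By these probe sets the day 4 minus day 2 difference was -0.17 for Mcm3 and -0.57 for Mcm6.

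Mcm4 was measured at 12.17 in growth medium and 11.80, 10.48 and 10.04 at days 0, 2 and 4 (-1.76). Mcm7 stood at 13.25 in growth medium and 13.10, 11.67 and 11.58 at days 0, 2 and 4 (-1.52), and Mcm2 at 12.73 in growth medium and 12.38, 11.09 and 10.93 at days 0, 2 and 4 (-1.46). By these probe sets the order of the day 4 differences was Mcm5, Mcm3, Mcm6, Mcm4, Mcm7 and Mcm2, and with no replicates neighbours in that order cannot be separated.

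Helicase loaders were uneven. Cdc6, the ATPase that brings the ring to the origin, stood at 11.14 in growth medium and 10.56, 7.88 and 7.37 at days 0, 2 and 4. Its day 4 difference of -3.19 (9.14-fold) was the furthest down among the brightest probe sets, though another readable probe set of Mcm5 gave -3.22, and since it ended below 7.95 its size is not exact. Cdt1, its partner in loading, was at 12.16 in growth medium and 11.82, 10.77 and 9.92 at days 0, 2 and 4. Cdt1 thus went on down after day 2, with -1.05 at day 2 and -1.90 at day 4, and its day 4 minus day 2 difference of -0.85 was the lowest among the brightest probe sets.

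The origin recognition subunits stayed nearer to day 0. Orc2 stood at 11.10 in growth medium and 10.80, 10.47 and 10.46 at days 0, 2 and 4, a day 4 difference of -0.34, the closest to 0 of all 42. Orc1, the subunit known to be cell cycle regulated, was at 10.02 in growth medium and 9.21, 8.47 and 8.48 at days 0, 2 and 4 (-0.73). Of the distance of Orc1 between growth medium and day 4, 52.8% was already there at day 0, where the median member had 15.8%. Shares were similar for Tyms (52.1%), Orc2 (47.0%) and Mcm10 (43.8%). Another readable probe set of Orc1 hardly moved, with -0.18 for day 0 against growth medium and -0.06 for day 4 against day 0. Orc6 was at 11.46 in growth medium and 10.99, 10.13 and 10.03 at days 0, 2 and 4 (-0.96). None of the 3 was 2-fold below day 0.

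Among the factors that switch the helicase on, 3 of 6 were past 2-fold at day 4. Gins2, a subunit of the 4-part GINS complex, stood at 11.72 in growth medium and 11.13, 9.49 and 9.06 at days 0, 2 and 4 (-2.07). Gins1 was at 10.66 in growth medium and 10.21, 8.72 and 8.73 at days 0, 2 and 4 (-1.48). The complex did not move as one: Gins3 differed by -0.54 and Gins4 by -0.48. Cdc45, which joins GINS and the ring in the active helicase, was at 10.29 in growth medium and 10.05, 9.06 and 8.29 at days 0, 2 and 4 (-1.76). Mcm10 was at 10.86 in growth medium and 10.25, 9.63 and 9.47 at days 0, 2 and 4 (-0.78).

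Pcna, the sliding clamp, was at 14.02 in growth medium and 13.93, 13.21 and 12.78 at days 0, 2 and 4. It was 2-fold lower at day 4 only (-0.71 and -1.15). The subunits of its loader ranged more widely, from Rfc1, the large subunit (-0.79), and Rfc2 (-0.93) to Rfc3 (-1.42), Rfc4 (-1.60) and Rfc5. Rfc5 stood at 11.51 in growth medium and 11.26, 9.52 and 8.93 at days 0, 2 and 4, a 5.02-fold lower level at day 4. The 3 subunits of the single-strand binding protein RPA lay close together, with day 4 differences of -1.11 for Rpa1, -0.97 for Rpa2 and -1.43 for Rpa3.

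Polymerase and primase genes were 2-fold lower at day 4 in 7 of 8 cases. Pole2, the second subunit of the leading-strand polymerase epsilon, stood at 10.87 in growth medium and 10.64, 9.31 and 8.51 at days 0, 2 and 4 (-2.13), and its catalytic partner Pole at 10.25 in growth medium and 10.09, 8.69 and 8.42 at days 0, 2 and 4 (-1.67). Primase and polymerase alpha start each new strand. Prim1, the catalytic primase, was at 12.28 in growth medium and 12.02, 10.24 and 10.18 at days 0, 2 and 4 (-1.84) and Pola1, the catalytic polymerase, at 10.10 in growth medium and 10.01, 8.27 and 8.16 at days 0, 2 and 4 (-1.84). By their brightest probe sets the non-catalytic partners differed less, Prim2 by -1.23 and Pola2 by -0.68, the last being the 1 case short of 2-fold. Another readable probe set of Prim2 gave -1.85, close to Prim1. Polymerase delta, the lagging-strand enzyme, gave -1.22 for its catalytic subunit Pold1 and -1.31 for Pold2.

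Joining of Okazaki fragments is read by the ligase Lig1 and the flap nuclease Fen1. Lig1 stood at 11.51 in growth medium and 11.38, 9.93 and 9.57 at days 0, 2 and 4 (-1.81). Fen1 was at 13.54 in growth medium and 13.26, 12.94 and 12.78 at days 0, 2 and 4, a difference of only -0.48 by its brightest probe set, and a second probe set gave another value. Chaf1b, the middle subunit of the fork's histone chaperone, was at 10.04 in growth medium and 9.68, 7.93 and 7.71 at days 0, 2 and 4 (-1.96), the last 2 values lying below 7.95.

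Nucleotide supply genes split into steep and shallow courses. Tk1, the cytosolic thymidine kinase of the salvage route, stood at 12.85 in growth medium and 12.39, 10.17 and 9.38 at days 0, 2 and 4. It was 8.08-fold lower at day 4 than at day 0 (-3.01), second to Cdc6 among the brightest probe sets. Dut, which breaks down dUTP and so keeps uracil out of DNA, was at 12.10 in growth medium and 11.58, 10.16 and 9.40 at days 0, 2 and 4 (-2.18). Both were lower still at day 4 than at day 2 (-0.79 and -0.76).

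Ribonucleotide reductase differed less. Rrm2, the small subunit that limits the enzyme through the cycle, was at 13.54 in growth medium and 13.33, 12.76 and 12.34 at days 0, 2 and 4. By this brightest probe set it was just short of 2-fold (-0.99), and its other readable ones were past it (-1.23 and -1.01). Rrm1, the large subunit, was at 12.45 in growth medium and 12.31, 11.46 and 11.53 at days 0, 2 and 4 (-0.78) and did not go lower after day 2. Tyms was at 8.49 in growth medium and 7.84, 7.35 and 7.26 at days 0, 2 and 4 (-0.59), close to or below 7.95 throughout, so its differences are not exact.

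**Figure D2:**
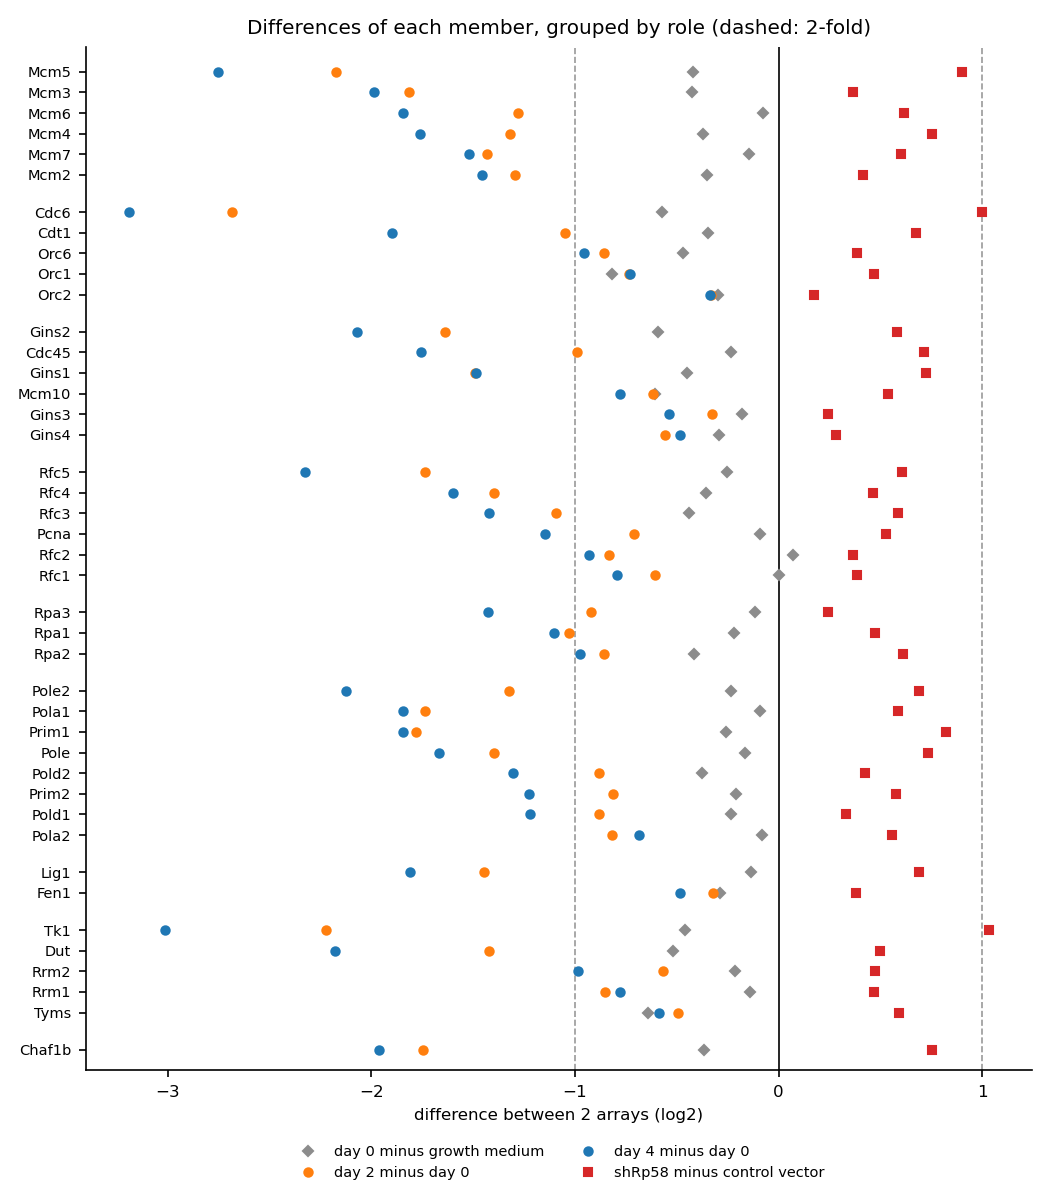
Differences between 2 arrays (log2, horizontal axis) for each of the 42 genes, grouped by role, with dashed lines at 2-fold. Day 4 points lie from -3.19 (Cdc6) to -0.34 (Orc2), and the hairpin points all lie right of 0, from 0.18 (Orc2) to 1.03 (Tk1).

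Most of the distance was covered by day 2. Over the 28 genes at least 2-fold lower at day 4, the median share of the day 4 difference already present at day 2 was 77.9%, from 55.2% for Cdt1 to 100.5% for Gins1. In 6 of the 28 the share was at least 90% (Gins1, Prim1, Pola1, Mcm7, Rpa1 and Mcm3), and in 9 it was under 70%. The 9 were Cdt1, Cdc45, Pcna, Pole2, Rpa3, Dut, Prim2, Pold2 and Mcm6. These shares rest on the brightest probe sets. Other readable ones gave 77.6% to 87.1% for Mcm3, and 76.6% for the Prim2 probe set that was 2-fold lower at both days. Another readable probe set of Pold1 gave 50.9%, where the brightest gave 72.2%, and one of Cdt1 gave 54.2%. There were 6 genes that reached 2-fold at day 4 but not at day 2, 22 were past it at both, and 14 at neither.

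Between day 2 and day 4 the differences were smaller, but more of the list than of all kept genes lay lower. None of the 42 genes was 2-fold lower at day 4 than at day 2, which is near the 0.808% of kept genes. Below 0 lay 37 of the 42 (88.1%), against 56.0%. The median was -0.21, with -0.03 over all kept genes. In all 10 genes (23.8%) were lower by at least 0.5, against 6.21% of kept genes, led by Cdt1 (-0.85), Pole2 (-0.80) and Tk1 (-0.79). The 5 above 0 were Pola2 (0.13), Gins4 (0.08), Rrm1 (0.07), Gins1 (0.01) and Orc1 (0.01), and 4 genes close to 0, Pola2, Orc2, Rpa1 and Chaf1b, took the other sign under at least 1 other normalization or choice of probe set.

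Across the whole course, from growth medium to day 4, the median difference was -1.75 and 34 of 42 genes were at least 2-fold lower, against 5.33% of kept genes, whose median was -0.01. The members lay between -3.77 (Cdc6) and -0.63 (Orc2). There were 35 genes lower at each of the 3 steps, against 9.84%. All 42 genes were at or above 7.95 in growth medium and 39 at day 4, the exceptions being Cdc6, Tyms and Chaf1b.

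The other probe sets of a gene are a second reading of the same RNA, and they mattered for single genes. Of the 42 genes 32 had more than 1 named probe set, with 50 others besides the brightest. Of the 35 others that reached 7.95, 32 lay below 0 at day 4 and 24 were at least 2-fold lower (median -1.30), and 21 lay further down than the brightest one. The 15 that stayed below 7.95 had a median of -0.16. The matching shares over the other probe sets of all genes are not given here.

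Among readable probe sets, the one furthest below its gene's brightest belonged to Fen1. The brightest probe set of Fen1 differed by -0.48 between day 0 and day 4, and the other, at 11.81 in growth medium and 11.50, 9.85 and 9.60 at days 0, 2 and 4, differed by -1.90. Mcm2 had -1.46 and -2.22, and Prim2 had -1.23, -1.85 and 0.16. Cdc45 (-1.76 and -0.07) and Chaf1b (-1.96 and 0.15) each had a probe set, above 7.95 on at least 1 array, that hardly moved. In 14 of the genes with more than 1 readable probe set all of them were past 2-fold. These were Mcm3 (-1.99, -2.30, -2.35 and -2.82), the other 5 ring subunits, Cdt1, Dut, Gins2, Pold1, Prim1, Rfc3, Rfc4 and Rpa1. The rest had at least 1 readable probe set short of 2-fold: Cdc45, Chaf1b, Fen1, Gins3, Orc1, Orc2, Prim2, Rfc1, Rfc2, Rpa2, Rrm1 and Rrm2. The matching share over all genes is not given here. Counting a gene when any of its probe sets was 2-fold lower at day 4 gave 33 of 42, the added 5 being Rfc2, Rpa2, Fen1, Rrm2 and, by a probe set below 7.95, Tyms. This count can only rise with more probe sets per gene, and its share over all kept genes is not given here. What sequence each probe set reads was not analysed here.

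**Figure D3:**
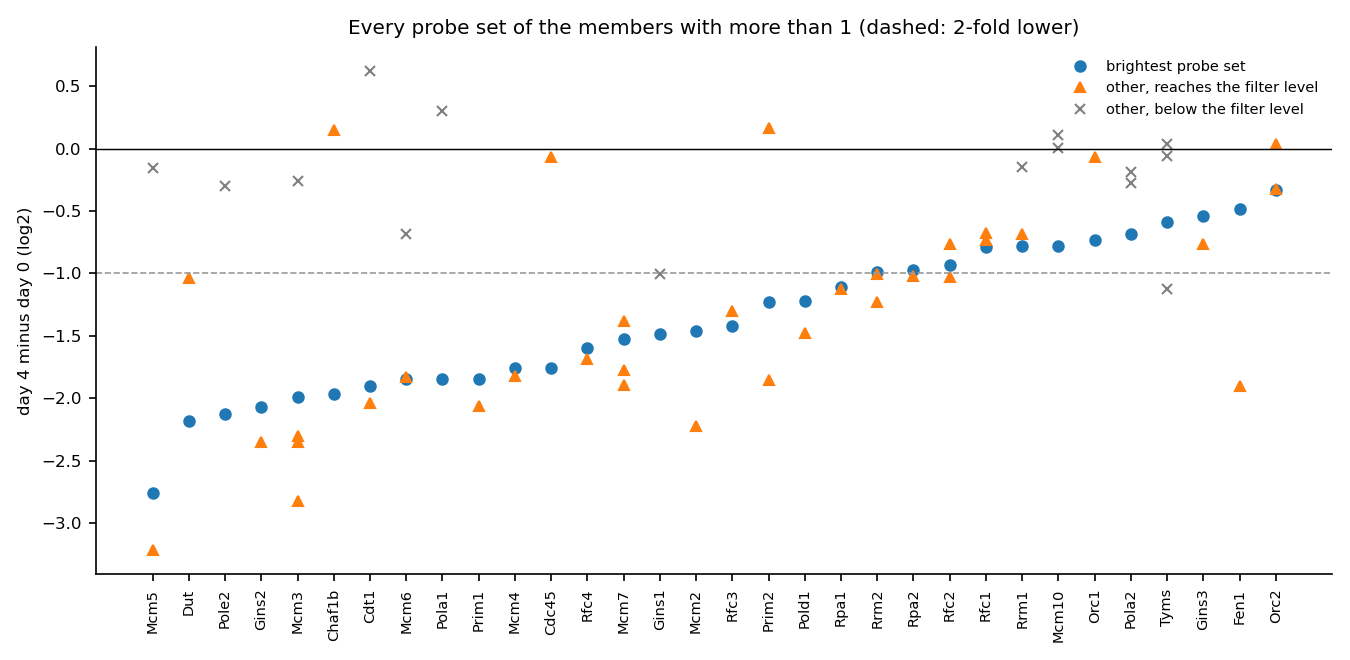
Day 4 minus day 0 (log2, vertical axis) for every named probe set of the 32 genes with more than 1, ordered by the brightest probe set, with a dashed line at 2-fold lower. Of the 35 readable others (orange triangles) 21 lie below the blue point of their gene, Fen1 furthest (-0.48 and -1.90), and Cdc45, Chaf1b, Orc1, Orc2 and Prim2 have one near 0. Grey crosses, probe sets below 7.95 on all arrays, lie from -1.12 to 0.62.

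The genes with an E2F match were further down, though the ranges overlapped. At day 4 the 13 with a match had a median of -1.84 (from -3.19 to -0.54), and the 22 with a window but no match -1.13 (from -3.01 to -0.34). Tk1, at -3.01, is in the second group, and Gins3, whose match is printed above, is at the shallow end of the first. The difference between these groups was not tested.

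In the stable lines the same genes stood the other way. With shRp58 all 42 were above the control vector at day 0 (median 0.57), against 47.5% of kept genes, whose median was -0.01. Of these, 18 were at least 1.5-fold higher (42.9%), against 1.43%, and 1 was at least 2-fold higher, against 0.0529%. With 1 array for each line, the hairpin and the line that carries it cannot be told apart.

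Tk1 was the gene past 2-fold, at 10.69 in the control line and 11.72 in the shRp58 line (1.03). Cdc6 came next at 7.21 in the control line and 8.20 in the shRp58 line (0.998). Its control value, like that of Chaf1b, was under 7.95, though near the median of that array (7.15). Mcm5 followed at 10.08 in the control line and 10.98 in the shRp58 line (0.90). By the same probe sets these 3 genes were also the furthest down at day 4 of the time course. Prim1 was at 10.12 in the control line and 10.94 in the shRp58 line (0.82), Mcm4 at 9.74 in the control line and 10.49 in the shRp58 line (0.76) and Chaf1b at 7.34 in the control line and 8.10 in the shRp58 line (0.75). Polymerase epsilon was higher in both subunits, 0.74 for Pole and 0.69 for Pole2.

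The helicase group had a median of 0.61 and 4 of its 6 genes past 1.5-fold by their brightest probe sets. The remaining ones, Mcm2 (0.42) and Mcm3 (0.37), were past it by their other readable probe sets (0.745 for Mcm2, and 0.72, 0.75 and 0.83 for Mcm3). In the other direction, a readable probe set of Mcm7 fell short of it (0.49), where the brightest gave 0.60. Factors for activation gave 0.72 for Gins1 and 0.71 for Cdc45 but 0.24 for Gins3 and 0.28 for Gins4, the pair that also moved little in the time course. By the brightest probe sets the smallest differences were in Orc2 (0.18), Gins3 (0.24) and Rpa3 (0.24). Pcna stood at 12.41 in the control line and 12.94 in the shRp58 line (0.53) and Rrm2 at 12.02 in the control line and 12.50 in the shRp58 line (0.47). The readable second probe set of Fen1 gave 0.66 where the brightest gave 0.38. Of the 35 readable other probe sets 31 lay above 0, with a median of 0.56, and the share over all genes is not given here. The rest were probe sets of Gins3 (-0.10), Rfc1 (-0.07), Orc1 (-0.0077) and Orc2 (-0.0046).

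Within the list, genes further down in differentiation tended to have a larger hairpin difference. Across the 42 genes the hairpin difference and the day 2 minus day 0 difference, which share no array, had Pearson r = -0.74 and Spearman rho = -0.65. With day 0 minus growth medium they were -0.23 and -0.19. These describe genes, which share the arrays and are not independent replicates. The correlation over all kept genes is not given here, so whether the relation is particular to the list was not tested. Genes of the mitosis list went the same way, with medians of -2.25 at day 2 and 0.79 with shRp58. For the 22 genes past 2-fold at day 2, the hairpin difference had a median size of 44.7% of the day 2 difference, from 20.2% (Mcm3) to 64.4% (Cdt1). The other readable probe sets of Mcm3 gave 36.7% to 37.8%. Over all 42 genes the size ran up to 119.4% (Tyms).

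**Figure D4:**
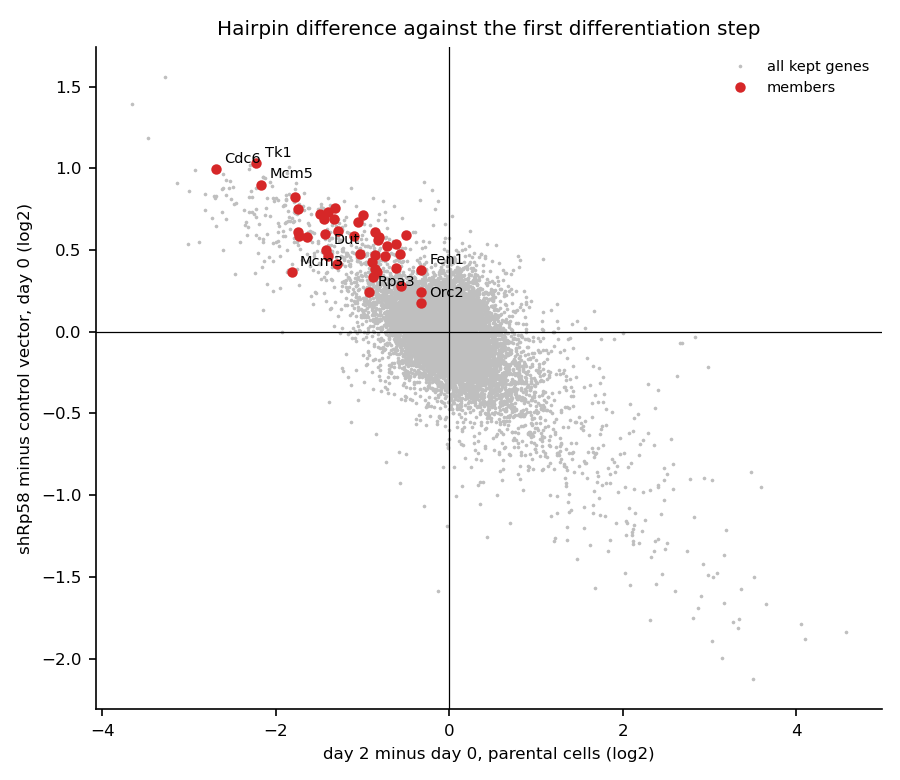
Difference of shRp58 from control vector at day 0 (log2, vertical axis) against day 2 minus day 0 in parental cells (log2, horizontal axis), with the 42 genes in red over 13242 kept genes in grey. All red points lie in the upper left part, with Cdc6 (-2.69, 0.998) and Tk1 (-2.22, 1.03) at the far end and Orc2 (-0.33, 0.18) near the origin.

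The 2 lines were also set beside parental cells, which crosses the sets of arrays and is only a description. Relative to the median shift of all kept genes, the control line stood below parental day 0 in 41 of 42 genes (median -0.59), and the shRp58 line was near it (median -0.06, with 24 genes below 0). After quantile normalization of all 6 arrays the medians were -0.58 and -0.02. Against growth medium they were -1.14 and -0.56. By the median the control line was thus lower in these genes than parental cells of the same labelled day, and the shRp58 line was close to them. Single genes of the shRp58 line ran from -1.34 to 0.51 against parental day 0, relative to the median shift.

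Other genes of the pathway were read from lists that hold none of the 42. For licensing and firing, 7 of 13 kept genes were at least 2-fold lower at day 4 (median -1.05). They were geminin (Gmnn, -3.12), which blocks Cdt1, the kinase pair Dbf4 (-2.19) and Cdc7 (-1.79), and Topbp1 (-2.05), Recql4 (-1.62), Ticrr (-1.16) and Donson (-1.05). The other origin subunits gave 0.17 for Orc3, 0.04 for Orc4 and -0.51 for Orc5 at day 4, and -0.35, -0.27 and -0.42 at day 2. Gmnn was also the gene of this list with the largest hairpin difference, 0.81.

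Of 17 fork and clamp genes 16 lay below 0 at day 4, against 7257 of 13242 kept genes, and 8 were at least 2-fold lower (median -0.99). Dscc1 (-2.96) and Chtf18 (-1.63), parts of the alternative clamp loader, and Atad5 (-1.61), which helps unload the clamp, were among the 8, whereas Chtf8, a partner of the first pair, differed by 0.03. The fork protection genes Timeless (-1.87), Clspn (-1.65) and Tipin (-1.60), the nuclease gene Dna2 (-1.23) and the polymerase delta subunit Pold3 (-1.05) were the others. The small polymerase subunits Pole3 (-0.11) and Pole4 (-0.30) stayed within 2-fold.

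All 10 genes that copy chromatin behind the fork lay below 0 at day 4 (median -1.28), against 7257 of 13242 kept genes. Of the 10, 5 were at least 2-fold lower: Uhrf1 (-3.20), Asf1b (-1.63), the histone mRNA binding protein Slbp (-1.60), Nasp (-1.59) and the maintenance methyltransferase Dnmt1 (-1.57). Rbbp4, the third subunit of the chaperone that holds Chaf1b and a part of other complexes too, differed by -0.09. Hells (-0.42) and the sister histone chaperone Asf1a (-0.35) were within 2-fold.

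Nucleotide synthesis outside the list had smaller medians. Of 10 genes for thymidylate and the dNTP pool 4 were 2-fold lower at day 2 (median -0.46), namely Dck, the deoxycytidine kinase of the salvage route (-1.89), Dtymk (-1.23), Shmt2 (-1.08) and Nme1 (-1.02). At day 4 Dck (-2.44) was the 1 gene of the 10 past 2-fold, and the median was -0.37. Shmt2, a mitochondrial folate enzyme, was -1.08 at day 2 and 0.16 at day 4, a difference of 1.24 between these days. For the synthesis of purines and pyrimidines from small precursors 2 of 14 genes were 2-fold lower, Cad (-1.12) and Pfas (-1.07), with a median of -0.35. Of 4 genes that set dNTP levels outside S phase 0 were 2-fold apart at day 4 (median -0.43): Samhd1, which breaks dNTPs down (-0.87), the mitochondrial kinases Tk2 (-0.47) and Dguok (-0.39), and Rrm2b, the reductase subunit of resting cells (0.30). Repair polymerases and ligases had 0 of 12 past 2-fold and a median of -0.17, from Xrcc1 (-0.67) to Polb (0.39).

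E2F and retinoblastoma family genes lay on both sides of 0. Of 18 genes 7 were at least 2-fold lower at day 4: Ccna2 (-2.86), E2f7 (-2.78), Ccne2 (-2.28), Rbl1 (-1.78), E2f1 (-1.43), Ccne1 (-1.21) and E2f8 (-1.10). Rb1 itself was at 10.82 in growth medium and 11.71, 12.35 and 12.63 at days 0, 2 and 4, and at 11.33 in the control line and 10.78 in the shRp58 line. It was thus 0.93 higher at day 4 and -0.55 apart with shRp58, the reverse of the replication genes in both. E2f7 had the largest hairpin difference of this list, 0.95.

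Mitotic genes were further down. All 27 kept genes of that list were at least 2-fold lower at both days, with medians of -2.25 at day 2 and -2.76 at day 4, and 25 of 27 were at least 1.5-fold higher with shRp58 (median 0.79). Their day 4 range, from -3.63 to -1.83, overlapped that of the replication genes, of which Cdc6, Tk1, Mcm5, Rfc5, Dut, Pole2, Gins2, Mcm3, Chaf1b, Cdt1, Mcm6, Pola1 and Prim1 lay inside it. At day 0 against growth medium the order was not the same, with medians of -0.20 for mitosis and -0.29 for replication. The lists were chosen with earlier results of these data known, and the difference between them was not tested.

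**Figure D5:**
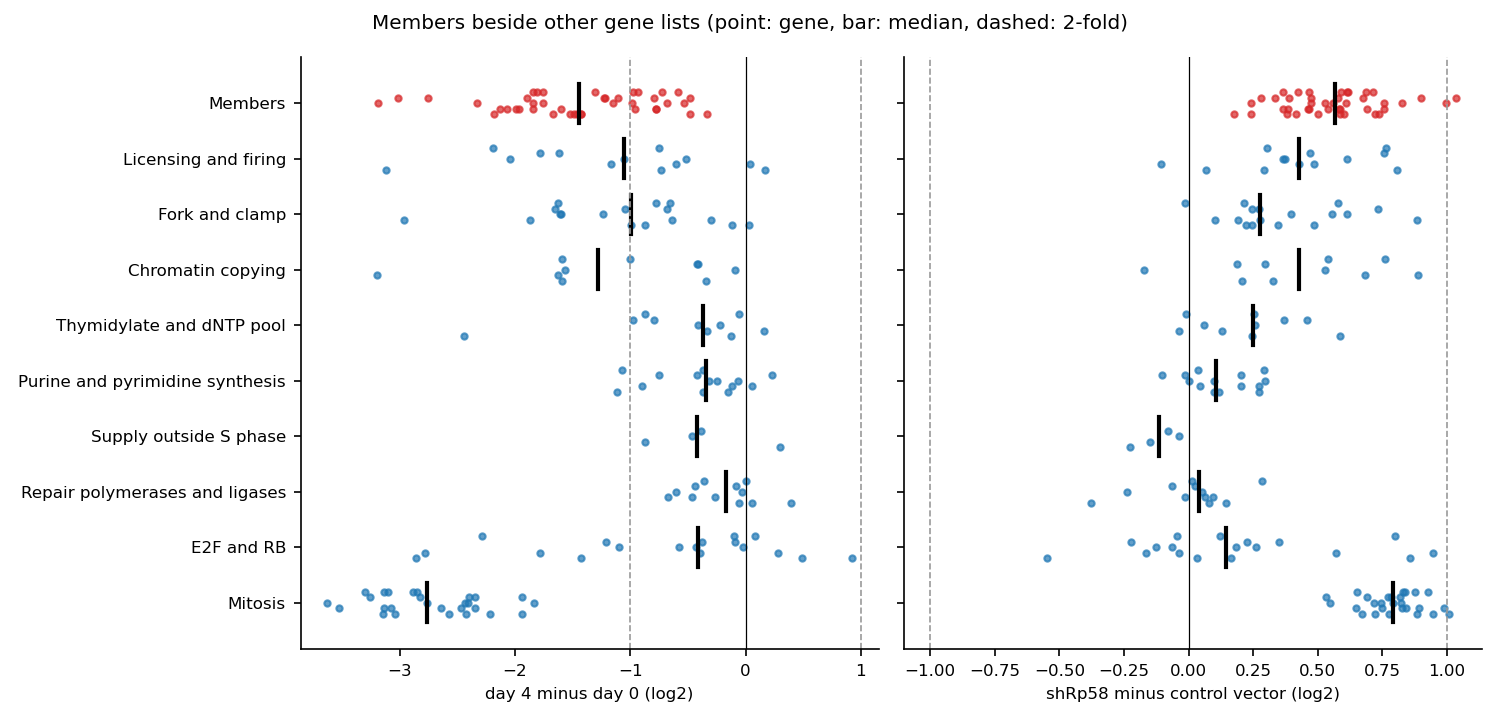
Differences (log2, horizontal axes) for day 4 minus day 0 (left) and shRp58 minus control vector (right) in the 42 genes (red) and 9 other lists (blue), each point a kept gene and each bar a median. Replication genes have medians of -1.44 and 0.57, mitotic genes -2.76 and 0.79, and repair polymerases and ligases -0.17 and 0.04.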

How the data were processed

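RNA of 6 cultures was hybridised to 1 array each (10 ug of cRNA, per the series' design text). The deposited values are log2 intensities per probe set that the authors computed by RMA, per the series' design text. The sources used here do not give the software or say whether all arrays were normalized together. Groups were taken from the sample titles. Of 45101 probe sets 34958 pair with 1 symbol, 932 with several and 9211 with none listed. Differences are between log2 values of 2 arrays, and counts use 2-fold (1 log2 unit). A probe set is called readable when it reaches 7.95 on at least 1 array. Members, lists and motifs were chosen with earlier results of these data known. All members could be named, and from other lists the genes 2-fold apart and the extremes; Orc4, Orc5, Tk2, Dguok, Pole3, Pole4, Hells, Asf1a and the markers Tubb3, Snap25, Cd3e, Kdr and Syn1 were named after their values were seen. List genes that were not matched or lay below 7.95 were left out, and some items are not reported here. Alternatives were other filters, centring, quantile and cyclic loess normalization, other probe sets, other folds and values relative to all genes. Loess used limma 3.58.1 in R 4.3.3, the rest Python 3.11.15 with pandas 2.3.3. The code was checked on simulated data with known shifts.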

Additional observations from a re-analysis of the deposited data

How the results depend on the processing

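No result reversed. The medians of the 42 genes kept their direction in all 5 comparisons and moved by less than the robust standard deviation of all kept genes under each other filter, normalization and choice of probe set. With 1.5-fold in place of 2-fold the counts were 4 lower at day 0 against growth medium (2.94% of kept genes), 36 at day 2 (8.34%) and 38 at day 4 (14%) against day 0, 6 at day 4 against day 2 (4.19%), and 18 higher with shRp58 (1.43%). With 3-fold they were 9 at day 2 (1.19%), 18 at day 4 (2.16%) and 0 with shRp58 (0 of all kept genes), where 1 gene was past 2-fold. The count with shRp58 was 2 after quantile normalization within the set and 2 relative to the median of all genes, since Cdc6 sits at the threshold. The day 2 count ran from 18 (mean over all probe sets) to 23 (centring) and the day 4 count from 26 (mean over all probe sets) to 30 (probe sets chosen where possible among those whose IDs lack the endings for shared sequence), other folds aside. The median of all kept genes at day 0 against growth medium was 0.10 as deposited and -0.03 after quantile normalization within the set, and the members' median went from -0.29 to -0.49. Of 1665 single values 48 moved by at least the robust standard deviation of all kept genes. The sign changed in 16, of which 7 were at day 0 against growth medium (Pola2, Rfc1 and Rfc2) and 9 at day 4 against day 2. Mcm10 was below the filter with that choice and Tyms with the mean over probe sets. No paired analysis was possible because each group is 1 array, and for the same reason no array could be left out. Signal over background was not given, so values under 7.95 have no exact size.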
